A study of Arabidopsis thaliana with 28 samples.

Results

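Genome-wide chromatin contacts of an autotetraploid Arabidopsis line, 4XCol-0, were set against those of its diploid progenitor Col-0. The 4 Hi-C libraries of the series (of 28 samples of all assays) were taken, 2 of 4XCol-0 and 2 of Col-0, each deposited as a matrix of contact signal between 50 kb bins of chromosomes 1 to 5. All 2385 bins entered, and the 2376 bins with signal in all 4 libraries were analysed. 4XCol-0 (4 × Col-0 in the paper) carries 4 copies of each chromosome after colchicine treatment of Col-0, and Col-0 is the accession used as wild type, with 2 copies. Both were sampled as whole aerial parts of seedlings after 3 days at 4 °C and 10 days of 16 h light and 8 h dark on Murashige & Skoog medium, with no other treatment. Aerial parts mix cell types and contain endoreduplicated nuclei, so each matrix is an average over nuclei of several DNA contents. The 4XCol-0 line is a single colchicine-derived line, so ploidy and anything else that the line acquired cannot be told apart. The libraries of a genotype are biological replicates according to the paper.

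Hi-C ligates DNA ends that lie close together in the fixed nucleus and counts the joined pairs. In Arabidopsis each chromosome has gene-rich arms and a gene-poor, heterochromatic pericentromere, and heterochromatin of different chromosomes is held in compact chromocentres while the arms loop out of them. Chromosome ends cluster, classically around the nucleolus. Contacts within a chromosome fall steeply with distance along the DNA, so contacts between chromosomes, between the arms of a chromosome, and at short range report on different levels of nuclear organisation.

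The libraries differed in depth far more than in any measurement below. Whole contacts recovered from the signal numbered 6153679 and 25961427 in 4XCol-0 replicates 1 and 2, against 2753780 and 19278810 in Col-0 replicates 1 and 2. The share of pairs of bins with no contact ran from 5.16% in 4XCol-0 replicate 2 to 58.7% in Col-0 replicate 1. Most values below are therefore sums over many pairs, with each library scaled to a total of 10000000, and single pairs are given with their whole contacts. Contact counts carry counting error besides the spread between libraries. The deposited signal was balanced within each chromosome, so that all bins of a chromosome had the same summed signal within it. In that signal a lower short-range value of a bin goes with a higher value at another distance. After scaling to all contacts it can also go with a higher share of contacts between chromosomes. A genotype difference is called beyond the spread when both 4XCol-0 libraries lie above, or both below, both Col-0 libraries. An exact permutation test of 2 against 2 libraries cannot go below a two-sided p of 0.333, and single values beyond the spread have that p.

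A small set of bins could not be read with confidence. In 32 bins at least 1 library had under 25% of its median contacts per bin, and 7 bins matched the mitochondrial genome over 10% or more of their 32-base words, which makes 34 bins in all. These bins held much of what stood out bin by bin, so counts are also given for the other 2342. The bin with the second largest rise in contacts with other chromosomes, chr1:15200001-15250000 in the pericentromere of chromosome 1, is an example. It held 117 HindIII sites, the sites that the Hi-C enzyme cuts, where the median bin held 26 and the highest 400. Of 234 runs of 100 bases that start at these sites on either strand, 50 were alike at 80% identity or more, and the run below is 1 of them, shown as the run with the most alike copies in a bin rich in cut sites. It lies at chr1:15232404-15232503 on the minus strand of the RefSeq TAIR10.1 sequence, with its 2 HindIII sites in capitals.
HindIII run, bin 1:15200001: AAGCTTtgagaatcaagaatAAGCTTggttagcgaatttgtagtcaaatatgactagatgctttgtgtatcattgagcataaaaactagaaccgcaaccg
The same bin held the telomere-type repeat CCCTAAA, counted on both strands, 428 times, against a median of 7 over all bins and a highest count of 630. This motif occurred at least once in 99.8% of bins and AAGCTT in 100% of them, and only 9 bins held more than 50 copies of CCCTAAA. Despite its many cut sites the bin had only 786 and 3187 contacts in 4XCol-0, against 360 and 1843 in Col-0.

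Among the classes of contacts, 4XCol-0 had a lower share than Col-0 at nearly every distance up to 5 Mb, and a higher share at the longest distances and between chromosomes. Contacts between bins 250 to 450 kb apart made up 4.63% and 4.64% of all contacts in 4XCol-0, against 4.93% and 5.12% in Col-0 (log2 ratio −0.12). At 1 to under 2 Mb the shares were 7.14% and 6.97% in 4XCol-0, against 7.66% and 7.61% in Col-0 (log2 ratio −0.11). At 10 Mb and over the order was the other way round, with 7.01% and 6.68% in 4XCol-0, against 6.61% and 6.36% in Col-0 (log2 ratio 0.08, and 0.0436 without 4XCol-0 replicate 1 or 0.0497 without Col-0 replicate 2). All 4 classes from 250 kb to under 5 Mb lay below, and the class at 10 Mb and over above, without overlap of the genotypes. Contacts within 1 bin were also lower, at 6.03% and 6.45% in 4XCol-0, against 6.57% and 7.155% in Col-0 (log2 ratio −0.14), but overlapped with unbalanced or thinned contacts and gave −0.0885 without 4XCol-0 replicate 1 and −0.0746 without Col-0 replicate 2. The genotypes overlapped at 50 to 200 kb, where both second replicates were high, with 11.5% and 12.6% in 4XCol-0 against 11.9% and 13.5% in Col-0. They also overlapped at 5 to under 10 Mb, with 8.19% and 7.90% in 4XCol-0 against 8.27% and 8.04% in Col-0. Among contacts within chromosomes alone, the class at 10 Mb and over stood higher still in 4XCol-0, at 11.4% and 10.8%, against 10.3% and 9.66% in Col-0 (log2 ratio 0.15). With that denominator the falls were smaller, at −0.0451 for 250 to 450 kb and −0.0418 for 1 to under 2 Mb, and the genotypes overlapped within 1 bin (−0.0643) and at 2 to under 5 Mb (−0.0109). The second of these falls was −0.0231 without 4XCol-0 replicate 2, −0.0196 without Col-0 replicate 1 and −0.0640 without Col-0 replicate 2. The plot of contact classes by library shows this order.

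**Figure D1:**
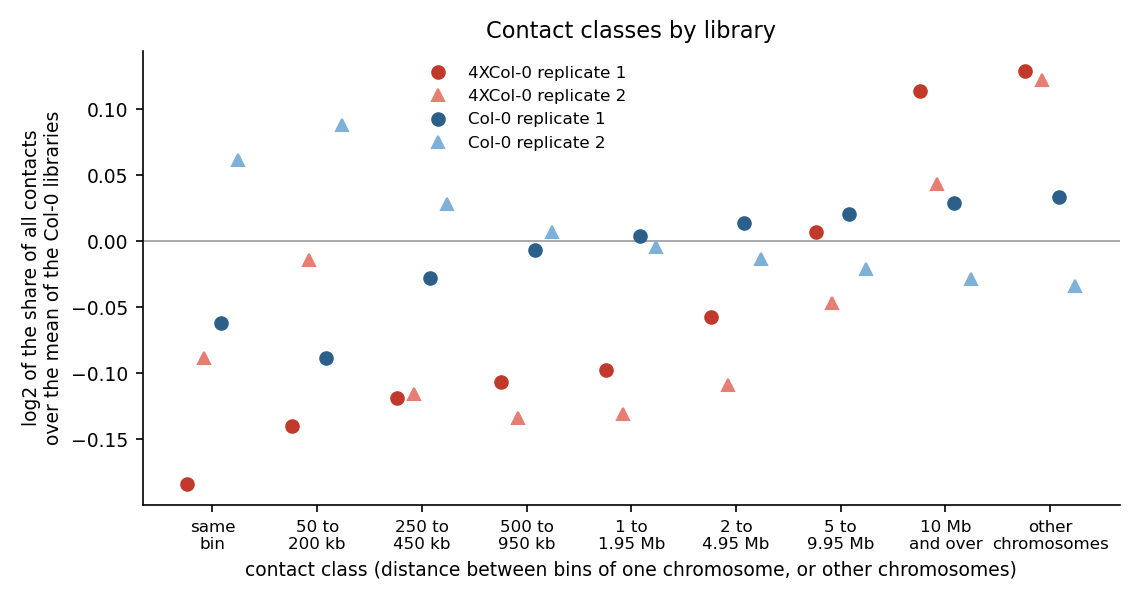
Share of all contacts in each contact class (x axis, by distance within a chromosome or between chromosomes) as log2 over the mean of the Col-0 libraries (y axis), with 1 point per library. The 4XCol-0 points lie below both Col-0 points within 1 bin and from 250 kb to under 5 Mb and above them at 10 Mb and over and between chromosomes, and the genotypes overlap at 50 to 200 kb and at 5 to under 10 Mb.

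Among the kinds of region compared, long-distance contacts were more frequent between the arms of a chromosome and within pericentromeres, and not within an arm. Within an arm, contacts per pair of bins at 10 Mb and over were lower, with 3.55 and 3.47 scaled contacts in 4XCol-0 against 3.79 and 3.75 in Col-0 (log2 ratio −0.10). Between the 2 arms of a chromosome the same distance gave 3.63 and 3.40 in 4XCol-0 against 3.35 and 3.17 in Col-0 (log2 ratio 0.11). At 2 to under 5 Mb, where bins flank the pericentromere closely, the rise was 0.23 on the log2 scale, with 6.08 and 5.29 in 4XCol-0 against 5.16 and 4.53 in Col-0. Without 4XCol-0 replicate 1 these rises were 0.0589 at 10 Mb and over and 0.131 at 2 to under 5 Mb, and without Col-0 replicate 2 they were 0.0682 and 0.138. On the scale of all contacts, the same distance thus carried fewer contacts within an arm and more across the pericentromere in both 4XCol-0 libraries. Contacts between chromosomes made up 38.3% and 38.1% of that total in 4XCol-0, against 35.8% and 34.2% in Col-0. This higher share lowers every value within chromosomes on this scale. The fall within an arm was not taken over contacts within chromosomes alone. Contacts of an arm with its own pericentromere at 5 to under 10 Mb overlapped, at 4.00 and 4.00 in 4XCol-0 and 4.00 and 3.95 in Col-0. The excess was present on all 5 chromosomes, from a log2 ratio of 0.10 on chromosome 1 to 0.18 on chromosome 4, where the arms shared 4.81 and 4.35 scaled contacts per pair in 4XCol-0 against 4.24 and 3.86 in Col-0. Without 4XCol-0 replicate 1 the ratio ran from 0.0501 (chromosome 1) to 0.105 (chromosome 4), and without Col-0 replicate 2 from 0.0674 (chromosome 1) to 0.110 (chromosome 4). Over all pairs at 10 Mb and over, chromosome 2 alone was lower on the scale of all contacts, with 3.12 and 3.11 in 4XCol-0 against 3.18 and 3.14 in Col-0 (log2 ratio −0.02, and −0.0101 without Col-0 replicate 1). This fall was not taken over contacts within chromosomes alone. On that scale the class at 5 to under 10 Mb, also −0.02 over all contacts, came to 0.0521. At 10 Mb and over, chromosome 4 had 3.66 and 3.47 in 4XCol-0 against 3.38 and 3.17 in Col-0 (log2 ratio 0.12, and 0.0764 without Col-0 replicate 2).

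Inside the pericentromeres the contacts were spread over longer distances in 4XCol-0. Contacts within a pericentromeric bin were 323 and 301 scaled contacts in 4XCol-0 against 366 and 374 in Col-0 (log2 ratio −0.25), and this was the largest fall among the distance classes of all regions. It was taken on balanced contacts only, and over all bins this class overlapped with unbalanced or thinned contacts. At 250 to 450 kb there were 54.1 and 55.0 per pair in 4XCol-0 against 58.8 and 60.8 in Col-0 (log2 ratio −0.13). At 2 to under 5 Mb the order turned, with 6.93 and 6.94 in 4XCol-0 against 6.28 and 6.49 in Col-0 (log2 ratio 0.12). The ratio of the long to the short class was 0.128 and 0.126 in 4XCol-0 and 0.107 in both Col-0 libraries (log2 ratio 0.25), so that the replicates of a genotype lay close together and the genotypes apart.

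Counted bin by bin, contacts with other chromosomes were higher in 4XCol-0 over most of the genome. The genotypes did not overlap in 1796 of 2376 bins (75.6%). Both 4XCol-0 libraries lay above both Col-0 libraries in 1795 of these (75.5%) and below them in 1 (0.0421%), the last bin of chromosome 2 with a log2 ratio of −0.02 (−0.0125 without 4XCol-0 replicate 2). The median log2 ratio over all bins was 0.13. The moderated test of limma, adjusted over all bins by Benjamini-Hochberg, called 774 bins (32.6%) at an adjusted p under 0.05, all higher, and 1190 bins had an unadjusted p under 0.05. Without the 34 doubtful bins it called 842 of 2342. The number of calls rested on the libraries: 98 without 4XCol-0 replicate 1, 7 without 4XCol-0 replicate 2, 1626 without Col-0 replicate 1 and 713 without Col-0 replicate 2. On unbalanced contacts limma called 0 bins, with 405 at an unadjusted p under 0.05, and 1571 bins lay above without overlap.

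The rise was graded from the pericentromere to the chromosome end. In pericentromeres, set where the running mean of coding genes per bin fell under 50% of its median, the median log2 ratio was 0.24 and 256 of 375 bins were called. Arm bins between the pericentromere and the end had a median of 0.13 with 506 of 1761 called, and the 240 bins in the outer 5% at each chromosome end had a median of 0.06 with 12 called. The median at the ends was 0.0221 without 4XCol-0 replicate 1, 0.0938 without 4XCol-0 replicate 2, 0.0904 without Col-0 replicate 1 and 0.0317 without Col-0 replicate 2, below that of all bins in each case. Read against the 32.6% called over all bins, pericentromeric bins were called more often and end bins less often, which describes these bins and was not tested. With each arm cut into 5 parts of equal length, counted outward, the median was 0.17, 0.15, 0.13, 0.09 and 0.06, with 0.0251 to 0.0923 for the outermost part when 1 library was left out. In shares, pericentromeric bins had 35.6% and 37.3% of their contacts with other chromosomes in 4XCol-0, against 32.4% and 31.4% in Col-0. Bins of the outermost part had 46.9% and 45.8% in 4XCol-0, against 45.0% and 43.4% in Col-0. Ends thus had the highest share of contacts with other chromosomes in every library and the smallest genotype difference.

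**Figure D2:**
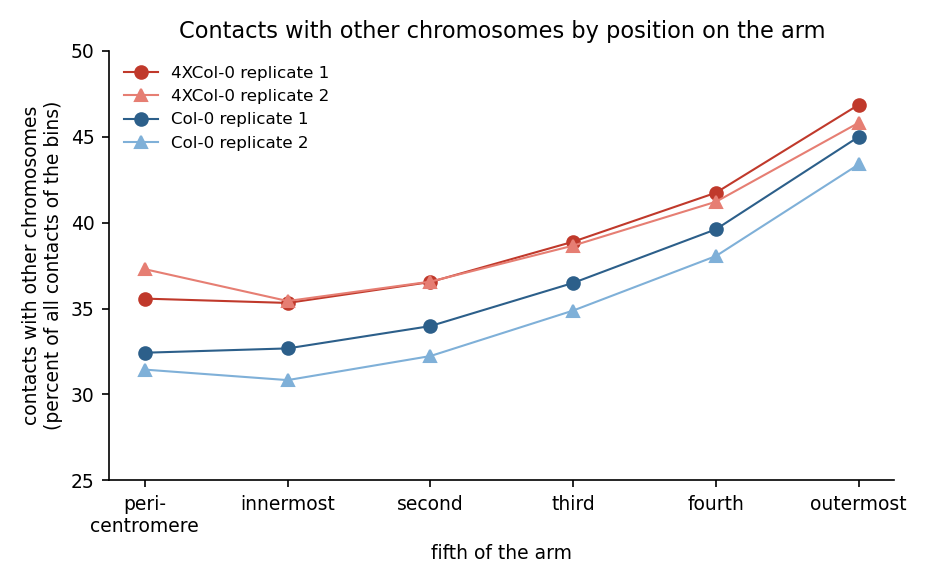
Percent of the contacts of the bins that are with other chromosomes (y axis, which starts at 25) by position on the arm (x axis, from the pericentromere to the outermost of 5 parts), with 1 line per library. Both 4XCol-0 lines lie above both Col-0 lines at every position, and the lines draw together towards the chromosome end.

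The gradient itself was compared over the libraries as a ratio. Contacts with other chromosomes per pericentromeric bin over those per bin of the outermost part of the arms were 0.617 and 0.695 in 4XCol-0, against 0.580 and 0.592 in Col-0 (log2 ratio 0.16, exact p = 0.333, two-sided). The innermost over the outermost part of the arms gave 0.619 and 0.649 in 4XCol-0, against 0.593 and 0.581 in Col-0 (log2 ratio 0.11). The same ratio for contacts between the arms of a chromosome was 0.722 and 0.720 in 4XCol-0, against 0.643 and 0.630 in Col-0 (log2 ratio 0.18). All 3 ratios were beyond the spread of the replicates in balanced contacts. With unbalanced contacts the first overlapped between the genotypes (log2 ratio 0.14, exact p = 0.667), and it was 0.246 without 4XCol-0 replicate 1 and 0.0741 without 4XCol-0 replicate 2. Arm by arm, the median of the innermost part was above that of the outermost in 8 of 10 arms, and fell at each step in 5 of them. The difference was largest on the right arm of chromosome 4, with 0.21 next to the pericentromere and 0.05 at the end. The exceptions were the 2 short arms, the left arm of chromosome 2 with 0.04 and 0.09, and the left arm of chromosome 4 with 0.15 and 0.18.

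By the position of both partners, contacts between pericentromeres of different chromosomes stood at 2.00 and 2.21 scaled contacts per pair in 4XCol-0, against 1.72 and 1.82 in Col-0 (log2 ratio 0.25). This separation was lost with unbalanced contacts (0.19), with thinning (0.19) and when taken over all contacts between chromosomes (0.13), each with an exact p = 0.667. Contacts of a pericentromere with the innermost part of another chromosome's arm were also above, with 1.40 and 1.45 in 4XCol-0 against 1.24 and 1.11 in Col-0 (log2 ratio 0.29), and which of the 2 classes differed more changed with the replicate number. Contacts among the outermost parts were the strongest between chromosomes in every library and did not separate, with 4.47 and 4.08 in 4XCol-0 against 4.36 and 4.17 in Col-0 (log2 ratio 0.0030). Within the total of contacts between chromosomes, the share among ends was lower in 4XCol-0, at 3.36% and 3.06%, against 3.48% and 3.52% in Col-0 (log2 ratio −0.13, and −0.191 without 4XCol-0 replicate 1 or −0.0597 without 4XCol-0 replicate 2). The share between arms and pericentromeres was higher, at 18.2% and 19.5% in 4XCol-0, against 17.7% and 17.6% in Col-0 (log2 ratio 0.09, and 0.139 without 4XCol-0 replicate 1 or 0.0403 without 4XCol-0 replicate 2). The increase between chromosomes was thus unevenly placed, towards the inner chromosome and away from the ends.

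Once the median shift of each library was subtracted, so that a bin is compared with the genome-wide rise, 397 bins (16.7%) lay above and 808 (34.0%) below without overlap. limma called 2 bins (0.0842%, 386 at an unadjusted p under 0.05), and both were doubtful. Without the doubtful bins it called 0, with 414 at an unadjusted p under 0.05 and likewise 0 by limma without the mean trend over all bins. Of 240 end bins 176 lay below and 2 above after this subtraction, while of 375 pericentromeric bins 168 lay above and 15 below. The largest such fall in a well-covered bin was in chr5:26850001-26900000 near the end of chromosome 5, with 5616 and 5273 in 4XCol-0 against 6179 and 5374 in Col-0 (log2 ratio −0.24 relative to the median, limma adjusted p = 0.23). Bin chr2:19000001-19050000, which holds SPA1, a repressor of light signalling, and JAR1, an enzyme that conjugates jasmonic acid, had 4696 and 4533 in 4XCol-0 against 5041 and 4645 in Col-0 (log2 ratio −0.22, limma adjusted p = 0.23). The number of bins called as departing from the common shift rested on the libraries and on bin size, with 6 without 4XCol-0 replicate 1, 3 without 4XCol-0 replicate 2, 8 without Col-0 replicate 1, 120 without Col-0 replicate 2 and 55 of 598 bins of 200 kb. The medians of the groups of bins were not tested.

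All 10 pairs of chromosomes had more contacts in 4XCol-0, without overlap of the genotypes. The pair of chromosomes 4 and 5 had 1.75 scaled contacts per pair of bins in both 4XCol-0 libraries, against 1.60 and 1.52 in Col-0 (log2 ratio 0.17). Chromosomes 2 and 3 differed least, with 1.63 and 1.65 in 4XCol-0 against 1.58 and 1.52 in Col-0 (log2 ratio 0.08, and 0.0540 without Col-0 replicate 2). Per bin, chromosome 4 had a median log2 ratio of 0.17 with 201 of 372 bins called, against 32.6% of all bins. Its pericentromere had 0.28 with 51 of 56 called, against 256 of 375 bins of all pericentromeres. The contacts of chromosome 4 with others, taken over those of chromosome 2, were 1.07 and 1.06 in 4XCol-0 against 1.04 and 1.03 in Col-0 (log2 ratio 0.04), a small difference that was nevertheless beyond the spread.

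Among 40 pairs of arms of different chromosomes, 33 had both 4XCol-0 libraries above both Col-0 libraries, and 7 overlapped. The left arm of chromosome 4 with the right arm of chromosome 1 rose most, with 1.68 and 1.60 in 4XCol-0 against 1.47 and 1.39 in Col-0 (log2 ratio 0.20). It was followed by the left arm of chromosome 4 with the right arm of chromosome 2, at 2.02 and 1.92 in 4XCol-0 against 1.78 and 1.66 in Col-0. Of the 7 pairs that overlapped, 5 involved the left arm of chromosome 2. One of these, with the left arm of chromosome 4, had the most contacts of all pairs of arms and was level, at 3.23 and 3.19 in 4XCol-0 against 3.39 and 3.05 in Col-0 (log2 ratio −0.0023). These 2 short arms carry the nucleolus organizer regions, arrays of ribosomal RNA genes of which the assembly holds only a part. The genotypes thus overlapped in this pair. Of its 8 partner arms on other chromosomes, the left arm of chromosome 4 was above with 6, and the left arm of chromosome 2 with 3. Per bin, 47 of 54 bins of the left arm of chromosome 4 lay above in contacts with other chromosomes, and 18 of 41 bins of the left arm of chromosome 2, against 75.5% over all bins.

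The short arms also differed from the long arms within their own chromosomes. Contacts at 50 to 450 kb, called near contacts here, lay below without overlap in 744 of 2376 bins (31.3%) and above in 3 (0.126%), with a median log2 ratio of −0.08. This median was −0.0339 without 4XCol-0 replicate 1, −0.134 without 4XCol-0 replicate 2, −0.160 without Col-0 replicate 1 and −0.0080 without Col-0 replicate 2. It is on the scale of all contacts. As shares of contacts within chromosomes, the 2 classes of this range gave −0.0050 (50 to 200 kb, with overlap) and −0.0451 (250 to 450 kb). With exchangeable libraries, 2 against 2 values fail to overlap with a probability of 0.333, near the 31.4% of bins here and the far share below. In the left arm of chromosome 2, 37 of 41 bins lay below in near contacts, with library medians of 1565 and 1659 scaled contacts in 4XCol-0 against 1774 and 1914 in Col-0 (median log2 ratio −0.18). In the left arm of chromosome 4, 47 of 54 bins lay below, with medians of 1646 and 1705 in 4XCol-0 against 1761 and 1910 in Col-0 (median log2 ratio −0.13). Contacts at 3 Mb and over within the chromosome are called far contacts here. Over all bins 737 did not overlap (31.0%), of which 309 (13.0%) lay above and 428 (18.0%) below, with a median log2 ratio of −0.0064, which ran from −0.0372 to 0.0240 when 1 library was left out. In the left arm of chromosome 2, 29 of 41 bins lay above, with medians of 1461 and 1398 in 4XCol-0 against 1332 and 1287 in Col-0 (median log2 ratio 0.10). In the left arm of chromosome 4, 35 of 54 bins lay above, with medians of 1508 and 1391 in 4XCol-0 against 1312 and 1282 in Col-0 (median log2 ratio 0.15). That median was 0.0879 without 4XCol-0 replicate 1, 0.220 without 4XCol-0 replicate 2 and 0.0923 without Col-0 replicate 2.

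In the right arm of chromosome 2, 210 of 268 bins lay below and 0 above, with medians of 1578 and 1543 in 4XCol-0 against 1665 and 1619 in Col-0 (median log2 ratio −0.09). Far contacts of the other 7 arms had median log2 ratios between −0.02 and 0.02, and each changed sign without 1 library or another. These far values do not compare like with like, because the left arms of chromosomes 2 and 4 end at the pericentromeres that start at positions 2050001 and 2700001, and hold no pair of bins 3 Mb apart. Of the far partners of their bins, 85.4% on chromosome 2 and 91.7% on chromosome 4 lay in the other arm, against 14.6% for the right arm of chromosome 2. The far values are also scaled to all contacts, so the higher share between chromosomes in 4XCol-0 lowers them in every arm. Bins were not counted by arm over contacts within chromosomes alone, so the falls of the right arm of chromosome 2 hold for the scale of all contacts only.

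Split by partner, a choice made after seeing the data, far contacts showed the same order in nearly all arms. Within the right arm of chromosome 2 there were 6.66 and 6.45 per pair in 4XCol-0 against 7.26 and 7.03 in Col-0 (log2 ratio −0.13), and within the other 7 arms that hold such pairs the log2 ratio was −0.13 to −0.07, with overlap only in the right arm of chromosome 4. Between the arms of chromosome 2 there were 4.36 and 4.14 in 4XCol-0 against 4.01 and 3.88 in Col-0 (log2 ratio 0.11, and 0.0714 without 4XCol-0 replicate 1), above as on every chromosome. The right arm of chromosome 2 was thus not set apart once the partner was held the same. On the scale of all contacts, far contacts with the own pericentromere differed in direction between arms. They were above without overlap in the right arms of chromosomes 1, 4 and 5, with a log2 ratio of 0.10 in the right arm of chromosome 5, at 3.82 and 3.81 in 4XCol-0 against 3.56 and 3.55 in Col-0. They lay below in the left arms of chromosomes 1, 3, 4 and 5 and the right arm of chromosome 2, by −0.04 to −0.02. Falls this small can turn with the denominator. The class of all pairs at 5 to under 10 Mb went from −0.02 to 0.0521 as a share of contacts within chromosomes. Neither these falls nor those within arms were taken on that scale, so the difference in direction holds for the scale of all contacts only.

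Bins of 1 arm share their partners, so these counts describe arms and are not counts of independent events. Pairs within an arm gave the same order, since contacts within the left arm of chromosome 2 were 50.4 and 52.6 per pair in 4XCol-0 against 57.9 and 61.1 in Col-0 (log2 ratio −0.21), and within the left arm of chromosome 4 48.6 and 49.1 in 4XCol-0 against 53.6 and 55.4 in Col-0 (log2 ratio −0.16), while the other 8 arms lay between −0.12 and −0.08.

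**Figure D3:**
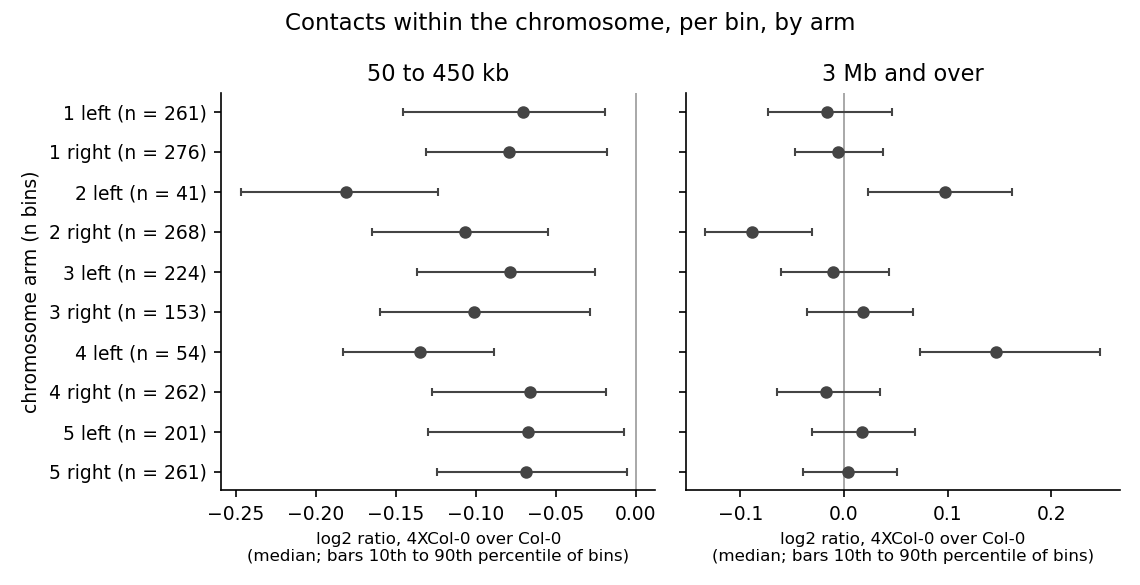
Log2 ratio of 4XCol-0 over Col-0 of near contacts (left panel, 50 to 450 kb) and far contacts (right panel, 3 Mb and over) within the chromosome, as the median over the bins of each chromosome arm, with bars from the 10th to the 90th percentile of bins. The left arms of chromosomes 2 and 4 have the lowest near medians (−0.18 and −0.13) and the highest far medians (0.10 and 0.15), and the right arm of chromosome 2 has the lowest far median (−0.09), where the short left arms have no far pairs of their own.

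Few single bins passed the test within chromosomes. For near contacts limma called 9 bins (0.379%), 8 of them lower, of which 6 were doubtful. The other 3 all lay in pericentromeres. Bin chr2:2750001-2800000 had 1833 and 1947 near contacts in 4XCol-0 against 2172 and 2298 in Col-0 (log2 ratio −0.24, limma adjusted p = 0.010). Bin chr4:3500001-3550000 had 2341 and 2337 in 4XCol-0 against 2670 and 2595 in Col-0 (log2 ratio −0.17, limma adjusted p = 0.0046). Bin chr5:12400001-12450000 had 1818 and 1970 in 4XCol-0 against 2269 and 2165 in Col-0 (log2 ratio −0.23, limma adjusted p = 0.024). The genotypes did not overlap in these bins. None of these 3 calls held in all 12 alternatives. Each was lost with unbalanced contacts, with thinning, without the trend, as a share of contacts within chromosomes, and without either 4XCol-0 library, and the highest adjusted p over these was 1.00. With the doubtful bins left out, limma called 4 bins, all lower. Leaving out single libraries moved the count of 9 to 1 without 4XCol-0 replicate 1, to 5 without 4XCol-0 replicate 2, to 13 without Col-0 replicate 1 and to 17 without Col-0 replicate 2.

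For far contacts limma called 10 bins (0.421%), 8 of them higher, and 7 were doubtful. Bin chr4:1450001-1500000 on the left arm of chromosome 4 had 1483 and 1343 far contacts in 4XCol-0 against 1157 and 1170 in Col-0 (log2 ratio 0.28 ± 0.07 SE, limma adjusted p = 0.0081). It holds 9 coding genes, among them SYP123, a syntaxin, and Tic20-IV, a component of the chloroplast protein import machinery. Bin chr4:2800001-2850000, in the pericentromere, had 934 and 845 in 4XCol-0 against 679 and 652 in Col-0 (log2 ratio 0.42 ± 0.11 SE, limma adjusted p = 0.048). It holds IBR1, an enzyme of the response to the auxin precursor indole-3-butyric acid, and EHD2, an EH-domain protein of endocytosis. Bin chr5:11850001-11900000 had 1684 and 1758 in 4XCol-0 against 1455 and 1497 in Col-0 (log2 ratio 0.22, limma adjusted p = 0.033). These calls rested on single libraries and settings, and all 3 were lost with thinning, with unbalanced contacts and without 4XCol-0 replicate 1. Bin 4:1450001 had adjusted p-values of 0.93 without 4XCol-0 replicate 1, 0.13 without Col-0 replicate 1 and 0.055 without Col-0 replicate 2. Bin 4:2800001 had 0.93 without 4XCol-0 replicate 1 and 0.29 without 4XCol-0 replicate 2. Bin 5:11850001 was lost without any 1 of the 4 libraries. With the doubtful bins left out limma called 2 bins, both higher, and leaving out 4XCol-0 replicate 1, 4XCol-0 replicate 2 or Col-0 replicate 1 gave 4, 4 and 6 of all bins.

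The bins with the largest rise in contacts with other chromosomes lay in pericentromeres, and 3 of the leading 4 were doubtful. Bin chr3:13750001-13800000 had 3598 and 3164 scaled contacts in 4XCol-0 against 2319 and 1885 in Col-0 (log2 ratio 0.69 ± 0.08 SE). This rested on 236 and 689 contacts of all kinds in 4XCol-0 and 96 and 423 in Col-0. Of its 32-base words, 80.6% were repeated within the bin itself. Bin 1:15200001, with the HindIII repeat shown above, had 3070 and 3423 in 4XCol-0 against 2349 and 2280 in Col-0 (log2 ratio 0.49). Bin chr2:3400001-3450000 matched the mitochondrial genome over 97.6% of its words and had 4378 and 4045 in 4XCol-0 against 2631 and 3642 in Col-0 (log2 ratio 0.44, and 0.209 without Col-0 replicate 1 or 0.677 without Col-0 replicate 2). In bin 1:15200001, 42.9% of the words were repeated within the bin, and copies elsewhere in the genome were not counted for either bin. The part of repeated sequence, and of low contact numbers, in these rises was not tested. Among well-covered bins, chr1:13700001-13750000 led, with 2373 and 2351 in 4XCol-0 against 1730 and 1769 in Col-0 (log2 ratio 0.43 ± 0.09 SE, limma adjusted p = 0.0054). It holds the genes AT1G36380 and AT1G36390, and its adjusted p was 0.082 without 4XCol-0 replicate 2 and 0.27 with unbalanced contacts.

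Of the 8 bins named for the largest falls in near and far contacts without overlap, 6 lay on chromosome 2. That chromosome holds 394 of the 2376 bins. It also held 193 of the 744 bins that lay below in near contacts and 242 of the 428 that lay below in far contacts. The count thus repeats the falls described above, with the same limits of partner and scale. For near contacts, bin chr2:3500001-3550000, where 19.1% of the words match the mitochondrial genome, had 1635 and 1589 in 4XCol-0 against 2153 and 2067 in Col-0 (log2 ratio −0.39). It holds MCM5, a subunit of the replicative helicase. Bin chr2:900001-950000, which holds MED8, a subunit of the Mediator complex, and EXPA15, a cell-wall expansin, had 1277 and 1508 in 4XCol-0 against 1653 and 1770 in Col-0 (log2 ratio −0.30, limma adjusted p = 0.30, and −0.181 without 4XCol-0 replicate 1). For far contacts, bin chr2:15100001-15150000, with the cell-cycle transcription factor gene E2F3, had 1451 and 1498 in 4XCol-0 against 1751 and 1618 in Col-0 (log2 ratio −0.19, limma adjusted p = 0.11). Bin chr2:17200001-17250000, with RR3, a response regulator of cytokinin signalling, and BOP2, a regulator of leaf patterning, had 1298 and 1269 in 4XCol-0 against 1449 and 1472 in Col-0 (log2 ratio −0.19, limma adjusted p = 0.20). The last 3 of these bins did not pass the test, although the genotypes did not overlap. On the left arm of chromosome 4, bin chr4:2200001-2250000, with the transcription factor gene WRKY42 and the receptor-like kinase genes CRK36, CRK37 and CRK38, had 1104 and 989 far contacts in 4XCol-0 against 814 and 867 in Col-0 (log2 ratio 0.31, limma adjusted p = 0.070).

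The unbalanced contacts of a bin, which would follow a local change of copy number, gave no called bin. Limma called 0 of 2376, with 0 at an unadjusted p under 0.05 and 2 without the mean trend. In this measure the differences between replicates 2 and 1 correlated at 0.79 between the genotypes, and the fit counts that shared part as error. The test could therefore hardly call a bin, and local copy number cannot be read from it. Without overlap were 305 bins (12.8%), of which 173 (7.28%) were higher and 132 (5.56%) lower, with a median log2 ratio of 0.0049. The largest rise was in bin chr2:3350001-3400000, within the copy of the mitochondrial genome on chromosome 2, with 1167 and 1383 in 4XCol-0 against 1039 and 1051 in Col-0 (log2 ratio 0.28, limma adjusted p = 1, and 0.159 without 4XCol-0 replicate 2). Over the 5 bins that match the mitochondrial genome by 50% or more, chr2:3250001-3500000, the mean was 925 and 1071 in 4XCol-0 against 914 and 903 in Col-0. Reads of the organelle itself would map here too, and the content of mitochondrial DNA in the libraries was not tested.

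The gradient of contacts with other chromosomes went with the gene and chromatin content of bins. Bins with 0 to 2 coding genes had a median log2 ratio of 0.25 with 164 of 222 called, and bins with 15 or more had 0.10 with 103 of 617 called, against 32.6% of all bins. In the 2001 bins outside pericentromeres, split into 4 groups of near-equal size by cover with H3K4me3 peaks (a mark of active promoters), the median was 0.16, 0.13, 0.10 and 0.08 from the lowest to the highest cover, and 226, 168, 75 and 49 bins were called out of 501, 500, 500 and 500, to be read beside the same 32.6%. The lowest of these medians was 0.0477 without Col-0 replicate 2. By cover with H3K27me3 peaks (the Polycomb mark of repressed genes) it was 0.10, 0.11, 0.11 and 0.14, with 92, 115, 125 and 186 called in groups of the same sizes, and the third median was 0.0726 without Col-0 replicate 2. Across these 2001 bins the log2 ratio had a Pearson correlation of −0.46 with H3K4me3 cover, 0.20 with H3K27me3 cover, −0.28 with the number of coding genes, −0.33 with GC content and 0.05 with HindIII sites. Bins are not independent, and gene content, marks, base composition and position along the arm vary together, so their parts cannot be told apart here. The transcript level of the genes did not follow the split, since the median log2 ratio of the authors' FPKM values, 1 per gene and genotype with no error, was 0.09 for 3956 expressed genes in called bins and 0.08 for 13985 in the other bins.

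Pairs among the bins of strong contact across chromosomes overlapped between the genotypes, while contacts of the same bins with other arm bins were higher in 4XCol-0. In Arabidopsis a few arm regions that meet each other across chromosomes are known as the KNOT, and here 15 arm bins that recurred at least 5 times among the 100 strongest pairs of arm bins on different chromosomes were taken as hubs, 12 of them with at least 25% of the median contacts in every library. They lie at chr3:1900001-2050000, chr3:3100001-3150000, chr3:16700001-16750000, chr4:11100001-11150000, chr4:15500001-15650000 and chr5:4700001-4850000. Among these 12 bins, 47 pairs on different chromosomes had 18.9 and 19.1 scaled contacts per pair in 4XCol-0 against 19.9 and 17.9 in Col-0 (log2 ratio 0.0092), with overlap and with log2 ratios of −0.07 and 0.09 for replicates 1 and 2. The same bins had 1.61 and 1.64 with other arm bins in 4XCol-0 against 1.49 and 1.47 in Col-0 (log2 ratio 0.13), without overlap. Relative to all pairs of arm bins on different chromosomes, hub pairs had 11.3-fold and 11.7-fold the contacts in 4XCol-0 and 12.7-fold and 12.1-fold in Col-0 (log2 ratio −0.11, and −0.0704 without Col-0 replicate 1), which lay below without overlap. The strongest pair, chr3:1950001-2000000 with chr5:4750001-4800000, had 62.2 and 56.0 scaled contacts in 4XCol-0 against 53.7 and 52.2 in Col-0, which stand for 37 and 126 whole contacts in 4XCol-0 and 14 and 84 in Col-0 (log2 ratio 0.16, and 0.0815 without 4XCol-0 replicate 1). Of 8 pairs among the 100 strongest that had at least 10 contacts in every library it was the only one above, 3 lay below and 4 overlapped. The pair of chr3:4250001-4300000 with chr4:9500001-9550000 had 15.9 and 16.0 in 4XCol-0 against 27.5 and 18.9 in Col-0 (log2 ratio −0.51, and −0.241 without Col-0 replicate 1 or −0.785 without Col-0 replicate 2), and stands for 12 and 59 contacts in 4XCol-0 and 10 and 49 in Col-0. The hubs were chosen by their mean over the same 4 libraries, and single pairs rest on few contacts. That mean counts each library alike, so pairs raised by counting error in the shallowest library, Col-0 replicate 1, are more readily chosen. The part of this choice in the lower hub ratio of 4XCol-0 was not tested.

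The first eigenvector of the distance-corrected contacts, computed per chromosome and library outside the pericentromeres, describes which bins share contact partners. Of 2001 bins, 965 (48.2%) did not overlap between the genotypes, with 446 (22.3%) higher and 519 (25.9%) lower in 4XCol-0, and limma called 0 (328 at an unadjusted p under 0.05, and 0 called without the mean trend with 329 at that p). The calls depended on single libraries, with 5 without 4XCol-0 replicate 1, 25 without 4XCol-0 replicate 2 and 136 without Col-0 replicate 2. Its sign was the same in all 4 libraries in 1332 bins, positive in both 4XCol-0 libraries only in 58 and in both Col-0 libraries only in 82. What the eigenvector followed differed between libraries. On chromosome 4 its absolute correlation with the side of the centromere was 0.41 and 0.59 in 4XCol-0 against 0.81 and 0.91 in Col-0, while its correlation with H3K4me3 cover was 0.67 and 0.60 in 4XCol-0 against 0.34 and 0.30 in Col-0. On chromosome 3 the correlation with H3K4me3 cover was 0.63 and 0.59 in 4XCol-0 against 0.06 and 0.38 in Col-0, and on chromosome 5 it was 0.55 and 0.65 in 4XCol-0 against 0.43 and 0.24 in Col-0. On chromosomes 3 to 5 the correlation of this eigenvector, taken per chromosome, was thus lower in both Col-0 libraries, on chromosome 1 it was 0.69 in both 4XCol-0 libraries against 0.63 and 0.62 in Col-0, and on chromosome 2 the genotypes overlapped.

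**Figure D4:**
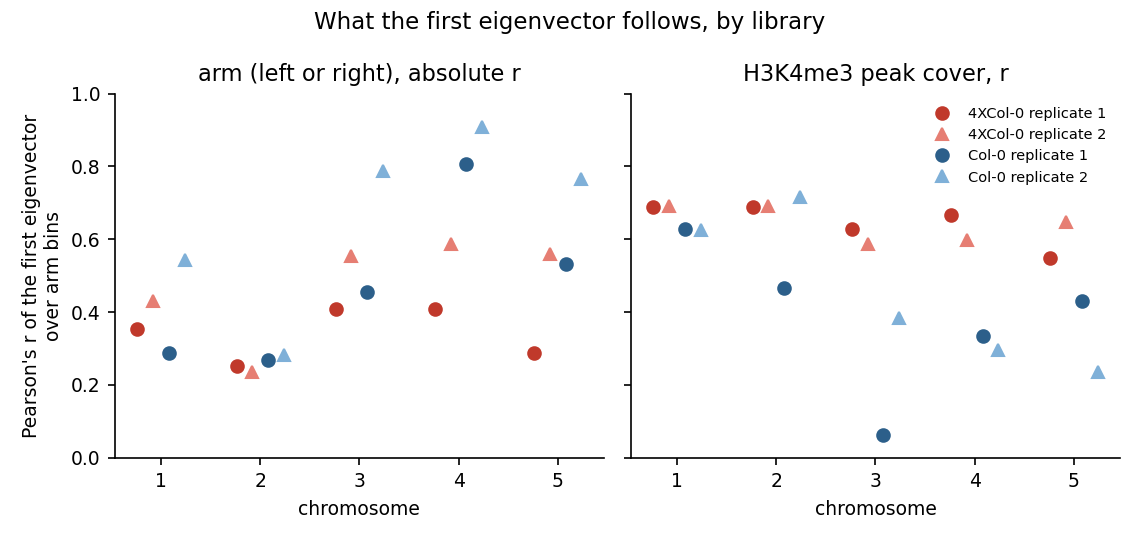
Pearson's r over the arm bins of each chromosome (x axis) between the first eigenvector of a library and the arm a bin lies on (left panel, absolute value) or its cover with H3K4me3 peaks (right panel), with 1 point per library. On chromosome 4 both Col-0 libraries follow the arms (0.81 and 0.91) more than both 4XCol-0 libraries (0.41 and 0.59), and follow H3K4me3 less.

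An eigenvector taken per arm did not give this order on chromosomes 3 and 5. Its correlation with H3K4me3 cover was 0.493 and 0.499 in 4XCol-0 against 0.505 and 0.543 in Col-0 on chromosome 3, the other way round without overlap. On chromosome 5 it was 0.381 and 0.687 in 4XCol-0 against 0.455 and 0.688 in Col-0, with overlap, as on chromosomes 1 and 2. On chromosome 4 it was 0.657 and 0.650 in 4XCol-0 against 0.591 and 0.648 in Col-0, still above but closer. This eigenvector also differed between the arms of some chromosomes, with an absolute correlation with the arm of 0.39 and 0.47 in 4XCol-0 and 0.26 and 0.39 in Col-0 on chromosome 1. Over all arms limma called 0 of 2001 bins (32 at an unadjusted p under 0.05), and the sign was positive in both 4XCol-0 libraries only in 17 bins and in both Col-0 libraries only in 12, while in 104 bins it split by replicate number. The 2 deep libraries, replicate 2 of each genotype, then had a correlation of 0.95 over 2001 bins, above the 0.82 between the 4XCol-0 replicates and the 0.74 between the Col-0 replicates. In this measure the deep libraries were thus more alike than the replicates of either genotype. Taken per chromosome, the 4XCol-0 replicates correlated at 0.87, the Col-0 replicates at 0.70 and the deep libraries at 0.82.

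FLC, the MADS-box repressor of flowering, lies in bin chr5:3150001-3200000 on the left arm of chromosome 5. This bin had 3681 and 3611 contacts with other chromosomes in 4XCol-0 against 3320 and 3332 in Col-0 (log2 ratio 0.13 ± 0.06 SE, limma adjusted p = 0.069), the same as the median over all bins, while its near contacts overlapped, at 1207 and 1357 in 4XCol-0 against 1340 and 1442 in Col-0. The first and last bins of the 5 chromosomes had log2 ratios of contacts with other chromosomes between −0.02 and 0.16, none of them called. The highest was the first bin of chromosome 4, chr4:1-50000 on the nucleolus organizer arm, with 4663 and 4586 in 4XCol-0 against 4428 and 3894 in Col-0 (limma adjusted p = 0.078).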

How the data were processed

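Per the labels and the paper's methods, the authors aligned Hi-C reads to TAIR10, made valid pairs with HiC-Pro and Juicer and deposited balanced (KR) contact signal per pair of 50 kb bins, 1 matrix per library. Peak lists, which the authors called with Macs2 and deposited with a fold enrichment ratio per peak, were used only for the percent of a bin that peaks cover. The deposited FPKM table, 1 value per gene and genotype made by the authors with STAR and featureCounts, was used for genes of at least 1 FPKM. The anti-H3 peaks were not used here.

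Bin factors were divided out of the signal to recover whole contacts, and 100% of low values came out whole within 0.05 of an integer. For the values per bin, each library was scaled to a total of 10000000, bins with a mean scaled sum of at least 100 were kept, and log2(sum + 1) was fitted in limma 3.58.1 (R 4.3.3) with a mean trend over all bins, with Benjamini-Hochberg adjustment. With 2 libraries a genotype the standard errors come largely from the trend, so that bins with few contacts can be called although their libraries overlap. p-values measure the spread between these libraries. Classes were compared by an exact permutation test, two-sided. Pericentromeres were bins where a running mean over 21 bins of coding genes fell under 50% of the median, and chromosome ends the outer 5%. Gene positions are those of the deposited table, 98.6% of whose nuclear genes have a RefSeq TAIR10.1 locus and 99.9% of these the same bin, and symbols come from RefSeq.

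Bins named are, for each measure, up to 4 with the largest rise and fall without overlap, 1 per 500 kb, the FLC bin, the first and last bins and the hubs. The bins called by limma outside the doubtful bins, and the arms, were singled out after their values were seen. Members, groups and lists were chosen with earlier results of these data known. Steps were tested on simulated data, where limma recovered 100 of 100 bins changed 1.25-fold and 100 of 100 changed 1.5-fold in contacts with other chromosomes, with 8 calls among 2174 unchanged bins. The simulated counts held counting error and a small spread per bin, with no shift of a whole library or replicate, and were not balanced. Bins with few contacts were not among those changed. This recovery thus checks the steps and does not give the sensitivity in the 4 real libraries. Python 3.11.15 with NumPy 2.4.6, pandas 2.3.3 and SciPy 1.17.1 was used. Alternatives were unbalanced contacts, thinning to equal depth, other denominators, region limits, bins of 200 kb, pseudocounts of 10, no minimum, limma without trend, a replicate block and leaving out each library. Leaving out the doubtful bins, all alternatives for the position ratios, and leaving out libraries for values by region, arm and group of bins were added after seeing the data.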

Additional observations from a re-analysis of the deposited data

How the results depend on the processing

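Among the results tested against alternatives, the share of contacts between chromosomes, the distance classes beyond the spread and all 5 position ratios kept their direction. The genotypes came to overlap, however, within 1 bin and among pericentromeres with unbalanced or thinned contacts, in the ratio of pericentromeres to outermost parts with unbalanced contacts, and in several classes as shares of contacts within or between chromosomes. The 50 to 200 kb class, −0.08 in log2, ranged from −0.17 to 0.0113 when single libraries were left out, and 5 to under 10 Mb, −0.02, from −0.0465 to 0.0067, and was 0.0521 as a share of contacts within chromosomes. Contacts among chromosome ends ranged from −0.0693 to 0.0689 without single libraries and were 0.00062 unbalanced, 0.00044 without the doubtful bins and 0.0122 with other region limits. As shares of contacts between chromosomes, those of ends with arms were −0.0606 and among arms −0.0092. Relative to the median shift, bin 3:13700001 gave 0.0014 with unbalanced contacts, and the unbalanced contacts of the FLC bin ranged from −0.0635 to 0.11 without single libraries. Counts of bins called by limma moved most. Leaving out 1 library gave 7 to 1626 for contacts with other chromosomes, 3 to 120 relative to the median, 1 to 17 near, 4 to 10 far, 0 to 1 unbalanced and 0 to 136 for the eigenvector. Bins of 200 kb gave 317, 55, 5 and 10 of 598 for other chromosomes, relative to the median, near and far. Thinning to the shallowest library gave 282, 1 relative to the median and 0 far, and unbalanced contacts gave 0 for all 4 measures. Limma without the trend gave 0 relative to the median, 2 near and 37 far. Without the doubtful bins 0 relative to the median, 4 near and 2 far were called. As shares of contacts within chromosomes 3 near and 33 far were called. A replicate block gave 979 calls for other chromosomes, 37 relative to the median, 312 near, 46 far and 4 unbalanced. With 2 pairs and no label of a shared batch, the replicate numbers were not taken as a pairing. Deviations of same-numbered libraries correlated at 0.20 for other chromosomes, 0.18 near, 0.14 far and 0.13 for the eigenvector. For unbalanced contacts they correlated at 0.79, so in that measure same-numbered libraries shared much of their deviation. With the block the named bins 1:13700001 (limma adjusted p = 0.016), 5:12350001 (0.025), 5:14350001 (0.027) and 3:13700001 (6.2e-14) also passed relative to the median, as did near contacts of 2:900001 (1.9e-06), 2:1650001 (6.6e-05) and 5:14350001 (3.1e-07), far contacts of 2:15100001 (0.022), 2:17200001 (0.032), 2:6150001 (0.022) and 4:2200001 (0.041), and contacts of the FLC bin with other chromosomes (0.023). The causes of these moves were not tested. Depth limits single pairs most, since Col-0 replicate 1 averaged 0.444 contacts per pair of bins on different chromosomes.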
